A study of Mus musculus with 8 samples.

Results

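Interferon-stimulated and antigen processing genes were followed in the basal layer of mouse epidermis, taken from the back skin of CD1 animals, which are outbred. The set is a list of 39 named genes. Of these, 32 were measured, among 17097 genes in all, each by its brightest probe set with 1 gene symbol. Isg15, Oas1a, Bst2, Ifi44, Tap1, Tap2 and B2m were not analysed here. The expanded group held 3 mice whose skin had been stretched by a force, at day 4. The TPA group held 2 mice treated with 12-O-tetradecanoylphorbol-13-acetate, an activator of protein kinase C. The control group held 3 untreated mice. The labels used here give no age, TPA dose or TPA time. Each mouse gave 1 array, from 300 cells sorted for the integrin ITGA6 and against CD34.

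Interferons bind receptors whose JAK kinases activate STAT proteins. A complex that holds STAT2 and IRF9 binds a GAAA repeat, the interferon-stimulated response element (ISRE), while pairs of STAT proteins bind the GAS element. Some of their targets restrict viruses. Others convert the proteasome into the immunoproteasome and load its peptides onto MHC class I. Keratinocytes, the main cells of the epidermis, respond to interferon and can sense viral nucleic acid themselves.

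Levels are log2 signals from RMA, and differences are log2 differences ± SE from limma. A gene is called when its Benjamini-Hochberg adjusted p over all 17097 genes is under 0.05. A background limit was set on each array at the 95th percentile of 79 smell, vomeronasal and trace amine receptor genes (6.37 to 6.55). The basal keratin Krt5 was far above it, at 13.29 ± 0.03 in expanded (n = 3), 13.33 ± 0.01 in TPA (n = 2) and 13.28 ± 0.05 in control arrays (SD, n = 3). Not all basal markers stayed level. Itga6, the integrin of the sort, was lower in expanded than in control arrays (-0.47 ± 0.07, adjusted p = 0.00275). It was also lower in TPA arrays (-0.69 ± 0.08, adjusted p = 0.000323). Krt15 was higher than in control arrays in both, by 1.23 ± 0.09 (adjusted p = 0.000106) and 2.38 ± 0.10 (adjusted p = 2.54e-06). Krt14, Col17a1 and Trp63 were not called against control. Of 4 markers of the hair follicle bulge, Cd34, Lgr5 and Lhx2 lay under the limit on every array. Sox9 lay above it on every array, at 9.22 in expanded, 9.65 in TPA and 9.43 in control arrays. The arrays are named by their labels, because known wound and phorbol ester genes ran against these. Odc1, known for its induction by TPA, averaged 9.84 in expanded, 8.99 in TPA and 11.34 in control arrays. Krt6a and Krt16, keratins of wounded epidermis, were also lowest in TPA arrays. In bulk RNA, fewer cells of a type and less RNA per cell cannot be told apart.

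The members fell into 3 classes by signal. Above the limit on every array were 17 of 32 (53.1%, beside 55.7% of all genes). Under it on every array were 7 (21.9%, beside 32.9% of all genes), and 8 were above it on some arrays (25.0%, beside 11.3% of all genes). Of the 7 measured antiviral effectors, Ifit3 alone was above the limit on every array. All 5 immunoproteasome and activator genes, Tapbp, Stat2, Stat3, Irf1, Irf3, Irf7 and Irf9 were above it on every array.

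Some members hold the letters of a response element near their start. The letters were not used to make the list, but it is a list of genes known to respond to interferon. A raised share of ISRE or GAS cores is therefore not independent of the list. The windows are RefSeq sequences of GRCm38.p6 from 250 bases before to 50 after a gene's start, and 27 measured members have one. The ISRE core, searched as GAAA, any 2 bases and GAAA on either strand, was in 11 of the 27 (40.7%), beside 3.99% of all 27025 genes with a window (3.44% of 32851 windows). The GAS core TTCNNNGAA was in 6 (22.2%, beside 9.55% of all genes), and a kB core for NF-kB (GGGA, any 2 bases and TTCC) was in 3 (11.1%, beside 1.63%). The sites below are printed because genes with the same core behaved unlike each other. Capitals mark the core, each read in its GAAA direction.
Ddx58: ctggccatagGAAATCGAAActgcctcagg
Cxcl10: tcacgctttgGAAAGTGAAActtacctcac
Ifit3: accagaagagGAAAGTGAAActtaccactg
Stat2: ctagggaaagGAAACTGAAAccagggtgcg
Psme1: agcgggaaggGAAAGCGAAAgcacagctcg
Ifit1: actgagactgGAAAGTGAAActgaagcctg
Gbp2: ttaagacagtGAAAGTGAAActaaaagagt
The Ddx58 site is at chr4:40239804-40239833 (plus strand) and the Cxcl10 site at chr5:92349083-92349112 (minus strand). The Ifit3 and Ifit1 sites are at chr19:34583363-34583392 and chr19:34640775-34640804 (minus strand). The Stat2 site is at chr10:128270266-128270295, the Psme1 site at chr14:55578493-55578522 and the Gbp2 site at chr3:142620594-142620623, all on the minus strand. Cxcl10, Ifit3, Ifit1 and Gbp2 hold the same 10 letters, GAAAGTGAAA. Of the 7 genes, Ddx58 and Cxcl10 were higher in TPA than in control arrays, and Ifit3 was lower. Ifit1 and Gbp2 were under the limit on every array, and Stat2 and Psme1 were above it and not called. Ifit3 and Ifit1 each hold a second core. Of the other genes with the core, Irf2, Irgm1 and Rsad2 were under the limit on every array, and Ifih1 was above it on 5 of 8. A match is a description of letters and not a binding site.

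The window of Cxcl10, the member with the largest difference among those with an ISRE core, is printed whole, from chr5:92348840-92349139 (minus strand). Its capitals mark the ISRE core at position -213 and a kB core at position -159, counted from the annotated start, which do not overlap.
Cxcl10: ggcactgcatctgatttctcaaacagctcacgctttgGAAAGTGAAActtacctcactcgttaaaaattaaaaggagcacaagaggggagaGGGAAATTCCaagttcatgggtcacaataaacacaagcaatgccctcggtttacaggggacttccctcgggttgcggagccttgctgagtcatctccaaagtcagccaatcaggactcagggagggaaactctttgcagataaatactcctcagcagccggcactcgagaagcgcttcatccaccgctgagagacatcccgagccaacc
Psmb8, called higher in TPA arrays, holds no ISRE core in its window at chr17:34197945-34198244 (plus strand). Its capitals mark a GAS core at position -97.
Psmb8: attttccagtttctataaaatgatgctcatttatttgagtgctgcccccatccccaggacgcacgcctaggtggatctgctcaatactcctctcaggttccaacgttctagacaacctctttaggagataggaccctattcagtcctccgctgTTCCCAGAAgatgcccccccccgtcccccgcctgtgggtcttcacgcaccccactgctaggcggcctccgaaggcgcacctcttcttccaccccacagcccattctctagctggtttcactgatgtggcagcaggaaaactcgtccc
Tapbp, Irf9 and Psme2, the other called genes with a window that rose, hold none of the 3 cores there. Parp10 and Parp14 are named only.

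**Figure D1:**
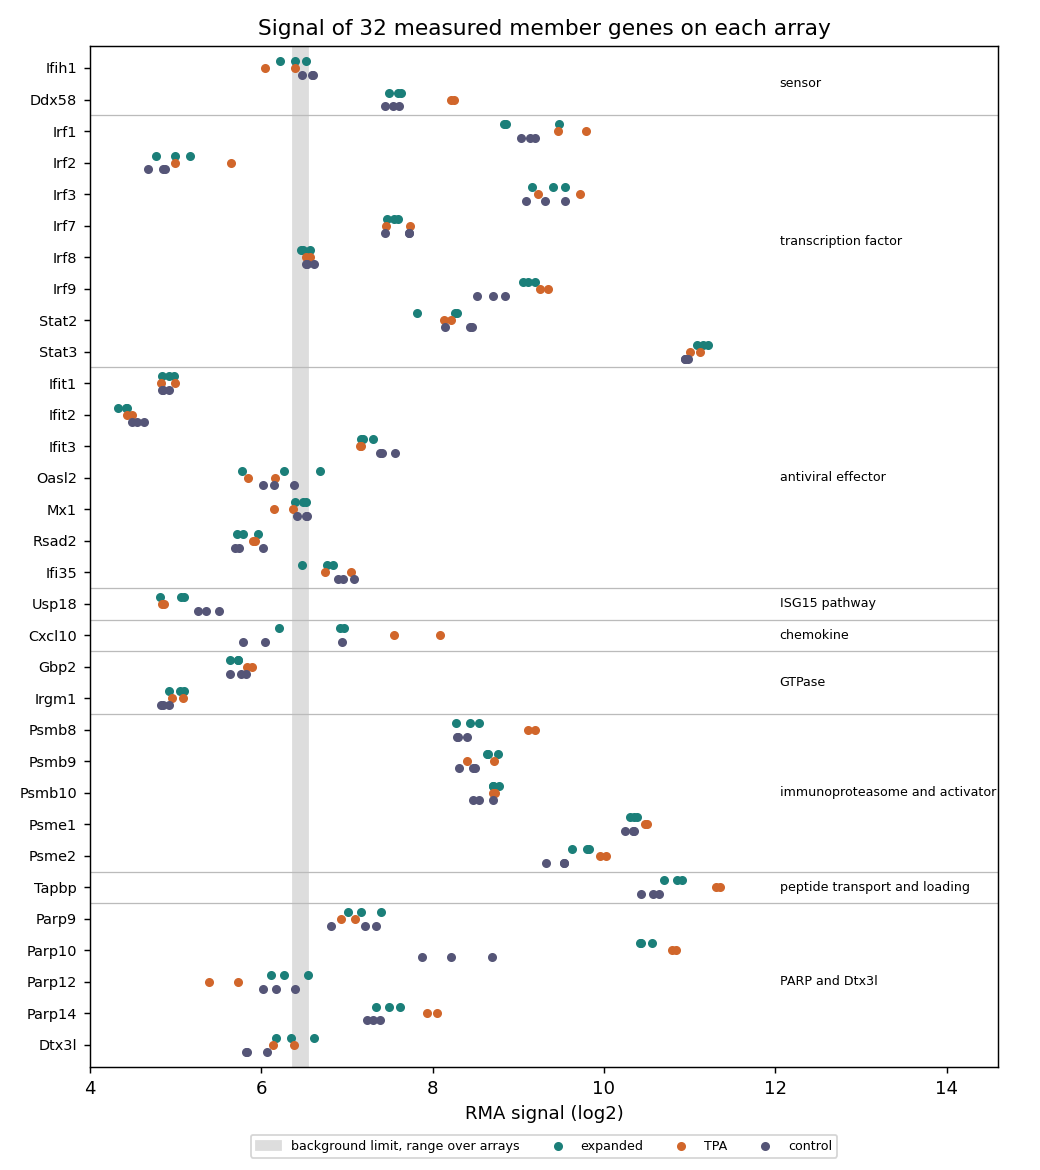
RMA signal (log2, x axis) of the 32 measured members on each of 8 arrays, 1 row a gene, grouped by role; points are arrays coloured by group and the grey band is the range of the background limit over arrays (6.37 to 6.55). In 7 members all arrays lay under their limits, and the Parp10 points of expanded and TPA arrays lie apart from those of control arrays.

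TPA was set against control to find what phorbol ester treatment does to these cells, and more members were called here than in the other comparisons. Of 32 members, 8 were higher and 3 lower in TPA arrays, 34.4% beside 20.8% of all genes called. By direction, 10.2% of all genes were higher and 10.6% lower. The higher ones were Parp10, Cxcl10, Psmb8, Tapbp, Ddx58, Parp14, Irf9 and Psme2. The median difference of the members was 0.13, beside -0.03 for all genes. Among the 17 members above the limit on every array, 7 were higher and 1 lower (47.1%), beside 30.5% of genes above the limit on every TPA and control array. For 22 members the TPA and control arrays did not overlap, beside 45.8% of all genes.

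**Figure D2:**
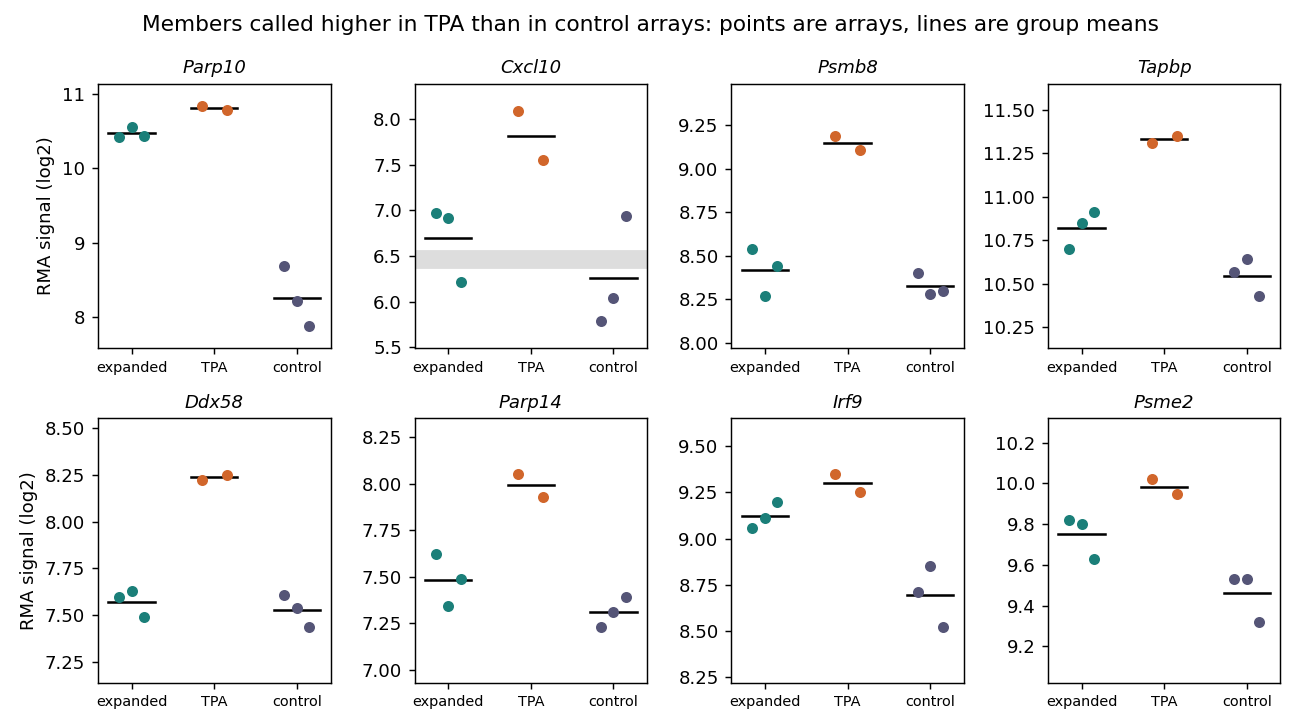
RMA signal (log2, y axis, own range in each panel) of the 8 members called higher in TPA than in control arrays, in expanded, TPA and control arrays; points are arrays, lines are group means, and the grey band in the Cxcl10 panel is the background limit. In each panel both TPA arrays lie above every control array.

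The comparison of expanded with control asks the same of stretch. Here 2 members were higher, Parp10 and Irf9, and 1 lower, Usp18, which is 9.4% of members beside 11.5% of all genes. By direction, 5.69% of all genes were higher and 5.78% lower. The members' median difference was 0.06, beside 0.01 for all genes. In 12 members the arrays did not overlap, beside 30.0% of all genes. Of the 17 members above the limit on every array, 2 were higher and 0 lower (11.8%), beside 17.6% of genes above it on every array of both groups.

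Set directly against TPA, the expanded arrays were lower in Ddx58, Psmb8, Tapbp and Parp14 and higher in Parp12. These 5 are 15.6% of the members, beside 5.98% of all genes (3.16% higher, 2.81% lower). Of the 17 members above the limit on every array, 0 were higher and 4 lower (23.5%), beside 8.95% of genes above it on every array of both groups. In 14 members the arrays did not overlap, beside 35.7% of all genes. The comparisons share arrays and are not independent of each other. All of these differences follow the labels, and an exchange of the control and TPA labels would turn the signs between TPA and control and would swap the 2 comparisons that involve expanded arrays.

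**Figure D3:**
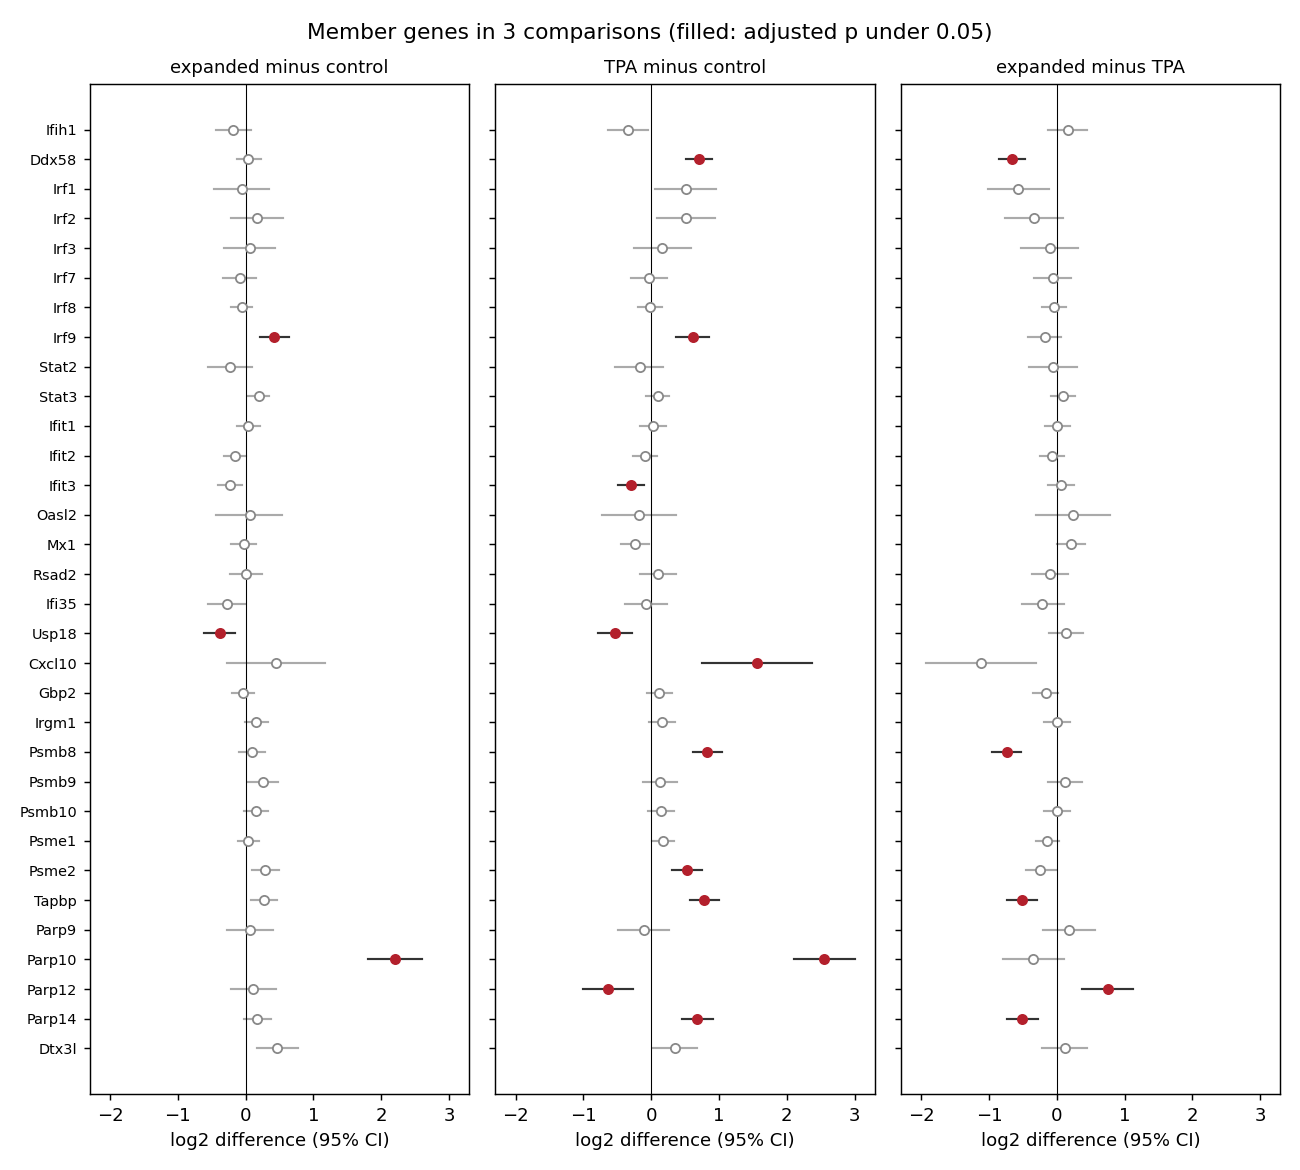
Log2 difference (x axis) with its 95% confidence interval for each measured member in 3 comparisons; filled points have a limma adjusted p under 0.05. Parp10 has the largest difference in both comparisons with control (2.20 and 2.55), and most other intervals lie within 1 log2 unit of 0.

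Of the members, 2 RNA helicases sense viral RNA. Ddx58, which encodes RIG-I, the sensor of RNA with a 5′ triphosphate, was at 8.22 and 8.25 in TPA arrays, against 7.61, 7.54 and 7.44 in control arrays. The expanded arrays were at 7.60, 7.63 and 7.49, so the TPA arrays lay above all others and the other groups overlapped. Ddx58 differed by 0.71 ± 0.08 between TPA and control (adjusted p = 0.000516) and by -0.66 ± 0.08 between expanded and TPA (adjusted p = 0.00347). Between expanded and control the difference was 0.04 (95% interval -0.13 to 0.22). Its other probe sets were dimmer (6.44 and 6.81 in TPA arrays) and were not called. Ifih1, which encodes MDA5, the sensor of long double-stranded RNA, was at 6.04 and 6.40 in TPA arrays, under the limit on both, against 6.60, 6.48 and 6.59 in control arrays (-0.34 ± 0.13, adjusted p = 0.0974).

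Irf9, a DNA-binding part of the complex that holds STAT2, was the transcription factor that passed. It was at 9.06, 9.11 and 9.20 in expanded arrays and 9.35 and 9.25 in TPA arrays, against 8.71, 8.85 and 8.52 in control arrays. Neither group overlapped with control. The difference was 0.61 ± 0.11 between TPA and control (adjusted p = 0.00396) and 0.42 ± 0.09 between expanded and control (adjusted p = 0.0215). The second call did not hold without expanded replicate 2 or 3 or control replicate 1 or 3 (adjusted p up to 0.0778). Nor did it hold with the replicate number as a block (adjusted p = 0.0534).

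Its partner Stat2 was at 8.13 and 8.22 in TPA arrays, against 8.46, 8.44 and 8.14 in control arrays, and these overlapped (-0.17 ± 0.16, adjusted p = 0.505). Stat3, which carries signals of the IL-6 family, was at 11.16, 11.21 and 11.09 in expanded arrays and averaged 11.06 ± 0.09 in TPA arrays (SD, n = 2), against 10.95, 10.95 and 10.98 in control arrays. All expanded arrays exceeded all control arrays, but Stat3 was not called (0.19 ± 0.07, adjusted p = 0.116). Irf1, an early target of interferon gamma, was at 9.46 and 9.79 in TPA arrays, against 9.14, 9.03 and 9.19 in control arrays. These did not overlap, yet Irf1 missed the threshold (0.51 ± 0.19, adjusted p = 0.108), and expanded replicate 1, at 9.48, stood apart from 8.86 and 8.83 in its group. Without expanded replicate 1 Irf1 was called between TPA and control (adjusted p = 0.0176) and between expanded and TPA (-0.78, adjusted p = 0.0159).

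Irf7, the factor that amplifies type I interferon, was at 7.46 and 7.74 in TPA arrays, against 7.44, 7.73 and 7.72 in control arrays (-0.03, 95% interval -0.30 to 0.24). Irf3, which responds to the sensors, differed by 0.16 ± 0.19 (adjusted p = 0.621). Its 3 probe sets disagreed, with the second in brightness called higher in TPA arrays (0.71 ± 0.15, adjusted p = 0.0109) and the third at -0.08. Irf8, known from myeloid cells, stayed within 6.46 to 6.62, at the limit. Irf2 was under the limit on every array.

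Of the 7 measured antiviral effectors, 0 were called higher in expanded arrays (beside 5.69% of all genes) or TPA arrays (beside 10.2%) than in control arrays. The list is short, and 5 of the 7 were under the limit on every TPA and control array, so this count says little. Ifit3, of a family that binds viral RNA, was at 7.15 and 7.17 in TPA arrays, against 7.41, 7.39 and 7.56 in control arrays, with no overlap. The fall by 0.30 ± 0.08 passed the threshold narrowly (adjusted p = 0.0382). It lost the call in 12 of 17 alternatives, among them the fits without either TPA array, any control array or expanded replicate 2 or 3 (adjusted p up to 0.143). Ifit1 and Ifit2, also on chromosome 19, were under the limit on every array (4.33 to 4.99).

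Ifi35 was above the limit on 7 of 8 arrays, at 6.75 and 7.05 in TPA arrays, against 6.90, 6.96 and 7.08 in control arrays, and was not called. Mx1, a GTPase known to block influenza virus, lay within 6.15 to 6.54. Oasl2, of the oligoadenylate synthetase family, lay within 5.78 to 6.69. Rsad2, which encodes viperin, was under the limit on every array, on each of its 3 probe sets. The interferon-induced GTPases Gbp2 and Irgm1 were under it as well.

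Usp18, the protease that removes ISG15 from proteins and restrains the type I receptor, was under the limit in every group. Its calls (-0.53 ± 0.11 between TPA and control, -0.38 ± 0.10 between expanded and control) are therefore differences below the limit and are given no fold. The call between expanded and control held in 5 of 16 alternatives. It did not hold when any single array was left out, with adjusted p between 0.051 and 0.116.

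Cxcl10, a chemokine that draws activated T cells, was at 8.09 and 7.55 in TPA arrays, against 5.79, 6.04 and 6.94 in control arrays. The expanded arrays were at 6.97, 6.92 and 6.21. Both TPA arrays were above all others, while control replicate 3 alone of its group was above the limit and the control mean of 6.26 was under it. The size of the difference from control is therefore uncertain. The difference was 1.56 ± 0.36 between TPA and control (adjusted p = 0.0145) and was not called without TPA replicate 1 (1.29, adjusted p = 0.0994). Between expanded and TPA it was -1.12 ± 0.36 (adjusted p = 0.118), and between expanded and control 0.45 (95% interval -0.28 to 1.17).

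Of the 3 catalytic subunits of the immunoproteasome, Psmb8 was called and Psmb9 and Psmb10 were not, and the difference between them was not tested. Psmb8, which replaces the chymotrypsin-like subunit Psmb5, was at 9.19 and 9.11 in TPA arrays, against 8.40, 8.28 and 8.30 in control arrays. The expanded arrays were at 8.54, 8.27 and 8.44, so the TPA arrays stood above both other groups. The rise by 0.83 ± 0.09 between TPA and control was 1.77-fold (adjusted p = 0.000425). Between expanded and TPA the difference was -0.74 ± 0.09 (adjusted p = 0.0037). A second Psmb8 probe set, under the limit on every array, was not called in either comparison.

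Psmb9, which replaces Psmb6, was at 8.40 and 8.72 in TPA arrays, against 8.47, 8.31 and 8.50 in control arrays, and these overlapped (0.13, 95% interval -0.12 to 0.38). Psmb10, which replaces Psmb7, differed by 0.15 (95% interval -0.05 to 0.34). Psmb9 and Psmb8 lie close together in the MHC region of chromosome 17, with Tap1 between them. Of the 2 subunits of the PA28 activator, which opens the proteasome, Psme2 was at 10.02 and 9.95 in TPA arrays, against 9.53, 9.53 and 9.32 in control arrays. That rise was 0.53 ± 0.10 (adjusted p = 0.00551). Its partner Psme1 was at 10.48 and 10.50 in TPA arrays, against 10.34, 10.24 and 10.35 in control arrays. These did not overlap either, but the difference of 0.18 ± 0.07 was not called (adjusted p = 0.141).

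A list of 16 other measured proteasome genes held Psmb5, Psmb6 and Psmb7, which the immunoproteasome subunits replace. It also held Psma and Psmb subunits that are not replaced, Psme3 and Pomp. Among the 16, 0 were higher and 2 lower in TPA than in control arrays, with a median difference of -0.15. That is 12.5% called, beside 20.8% of all genes, and the lower calls are near the 10.6% of all genes called lower. The 2 were Psma3 (-0.25 ± 0.07) and Psmb5 (-0.23 ± 0.07, adjusted p = 0.0494). Psmb5 was at 10.99 and 10.93 in TPA arrays, against 11.21, 11.19 and 11.18 in control arrays. Psmb8 and the subunit it replaces thus differed in opposite directions. In the comparison of expanded with control 0 of the 16 were called, with 0 also between expanded and TPA.

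Tapbp encodes tapasin, which holds empty MHC class I at the peptide transporter. It was at 10.70, 10.85 and 10.91 in expanded arrays and 11.31 and 11.35 in TPA arrays, against 10.57, 10.64 and 10.43 in control arrays. The 3 groups did not overlap. The difference was 0.78 ± 0.09 between TPA and control (adjusted p = 0.000574) and -0.51 ± 0.09 between expanded and TPA (adjusted p = 0.018). Between expanded and control it was 0.27 ± 0.08 (adjusted p = 0.0786). Its second probe set was also called between TPA and control (0.49 ± 0.11, adjusted p = 0.0156), and not between expanded and TPA (adjusted p = 0.445). The call between expanded and TPA was lost in 5 of 17 alternatives. They include the fits without either TPA array (adjusted p up to 0.0724), with the replicate number as a block (adjusted p = 0.066) and with probe sets averaged.

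The class I genes around it were mixed. Of 16 measured genes of MHC class I and peptide loading, 5 were higher and 1 lower in TPA than in control arrays (37.5%, beside 20.8% of all genes). H2-Q4, a nonclassical class I gene, was at 9.49 and 9.41 in TPA arrays, against 8.69, 8.07 and 8.20 in control arrays (1.14 ± 0.17, adjusted p = 0.00174). Rfx5, a factor of class I and class II promoters, differed by 1.08 ± 0.14 (adjusted p = 0.000813) and H2-T10 by 0.56 ± 0.09. Calreticulin, the chaperone encoded by Calr, was lower (-0.60 ± 0.07, adjusted p = 0.000639). The classical gene H2-K1 averaged 12.99 in expanded, 13.07 in TPA and 12.82 in control arrays (0.25 ± 0.07 between TPA and control, adjusted p = 0.0388).

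H2-D1 showed another order. It was at 12.13, 12.33 and 12.35 in expanded arrays, against 12.78, 12.75 and 12.87 in control arrays, and TPA arrays were at 12.86 and 12.83. The expanded arrays were below all others, by -0.53 ± 0.08 against control (adjusted p = 0.00383) and by -0.57 ± 0.09 against TPA (adjusted p = 0.0094). Class I genes are close in sequence, so their probe sets may share signal, and only the brightest of 5 H2-D1 probe sets is given here. In the comparison of expanded with control, 0 of these 16 genes were higher and 2 lower, H2-D1 and Calr (12.5%, near the 11.5% of all genes).

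Parp10 was the member with the largest difference. It encodes an ADP-ribosyltransferase that attaches single ADP-ribose units to proteins. It was at 10.42, 10.56 and 10.43 in expanded arrays and 10.84 and 10.79 in TPA arrays, against 8.69, 8.21 and 7.88 in control arrays. The 3 groups did not overlap, and the control arrays varied most (SD 0.41, against 0.08 in expanded and 0.03 in TPA arrays). The difference was 2.55 ± 0.19 between TPA and control (5.86-fold, adjusted p = 4.85e-05). Between expanded and control it was 2.20 ± 0.17 (adjusted p = 0.000151), and between expanded and TPA -0.35 ± 0.19 (adjusted p = 0.401). Both calls against control held in all 17 alternatives (adjusted p up to 0.00159).

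Parp14, a large ADP-ribosyltransferase with macrodomains, was at 8.05 and 7.93 in TPA arrays, against 7.23, 7.31 and 7.39 in control arrays. The expanded arrays, at 7.62, 7.34 and 7.49, overlapped with control. It differed by 0.68 ± 0.10 between TPA and control (adjusted p = 0.00157) and by -0.51 ± 0.10 between expanded and TPA (adjusted p = 0.0221). The second of these calls was lost in 7 of 17 alternatives, among them the fits without expanded replicate 2 or 3 or TPA replicate 1 (adjusted p up to 0.12). A dimmer probe set of Parp14 was not called.

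Its chromosome 16 neighbours Dtx3l and Parp9 were not called in any comparison. Dtx3l, a ubiquitin ligase, was under the limit on 7 of 8 arrays, with 6.17, 6.35 and 6.62 in expanded arrays, against 5.82, 6.07 and 5.83 in control arrays. The difference of 0.47 ± 0.13 missed the threshold (adjusted p = 0.0529). Parp9, the partner of Dtx3l, was at 7.09 and 6.93 in TPA arrays, against 6.82, 7.21 and 7.34 in control arrays (-0.11, 95% interval -0.49 to 0.27). Parp12, an antiviral family member, was at 6.27, 6.55 and 6.11 in expanded arrays and 5.39 and 5.73 in TPA arrays, against 6.40, 6.17 and 6.02 in control arrays. It was above the limit only on expanded replicate 2, so no fold is given for its calls between TPA and control (-0.64 ± 0.16, adjusted p = 0.0245) and between expanded and TPA (0.75 ± 0.16, adjusted p = 0.0323). The first of these calls was lost in 4 of 16 alternatives, among them the fits without TPA replicate 1 or control replicate 1 or 2 (adjusted p up to 0.165). The second was lost in 6 of 16, among them the fits without expanded replicate 1 or 2, TPA replicate 1 or control replicate 2 (adjusted p up to 0.174). Of 10 other measured genes of the PARP family, 2 were higher and 0 lower in TPA than in control arrays (2 of 10 called, near the 20.8% of all genes). They were Tiparp, which encodes PARP7 (0.56 ± 0.11), and Zc3hav1, an antiviral zinc finger protein (0.41 ± 0.11), and both were lower in expanded than in TPA arrays.

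Upstream of these genes, of 5 measured ligand genes 0 were called in any comparison. Of all genes, 20.8% were called between TPA and control, 11.5% between expanded and control and 5.98% between expanded and TPA. With so few ligand genes, a count of 0 says little about change. Ifnb1, Ifng, Ifna2 and Ifna4 were under the limit on every array. Ifna1 was above it on every array (7.91 in control arrays), in a family of near-identical genes whose probe sets may share signal. Of 11 measured receptor and JAK-STAT genes, 2 were higher and 3 lower in TPA than in control arrays (45.5%, beside 20.8% of all genes). Ifngr1, the ligand-binding chain of the interferon gamma receptor, was higher in expanded (0.46 ± 0.08, adjusted p = 0.00793) and in TPA arrays (0.38 ± 0.09, adjusted p = 0.0175) than in control arrays. Jak1 was higher in both as well, and Jak2 lower in both. Socs3, an inhibitor of JAK signals, was lower in TPA than in control arrays (-0.74 ± 0.21, adjusted p = 0.039).

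Other interferon-stimulated genes, from a list of 31 measured genes, went both ways. Of these, 6 were higher and 3 lower in TPA than in control arrays (29.0%, beside 20.8% of all genes). In expanded arrays 3 were higher and 1 lower than in control arrays (12.9%, near the 11.5% of all genes). Their median difference was -0.04 between TPA and control, and 12 of the 31 were under the limit on every TPA and control array. Ifi27 was at 10.82, 10.75 and 10.55 in expanded arrays and 11.24 and 11.16 in TPA arrays, against 10.22, 10.06 and 9.85 in control arrays, with no overlap between groups. It differed by 1.15 ± 0.12 between TPA and control (adjusted p = 0.000292) and by 0.66 ± 0.11 between expanded and control (adjusted p = 0.00585). Ifitm2, which hinders viral entry, rose in both comparisons (0.50 ± 0.07 and 0.49 ± 0.06). Oas1g, close in sequence to Oas1a, was lower in TPA arrays (-0.53 ± 0.10, adjusted p = 0.00623), as was Samhd1, which breaks down nucleotides (-0.63 ± 0.12).

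In the nucleic acid sensing list, of 14 measured genes 0 were higher and 1 lower in TPA than in control arrays (7.1%, beside 20.8% of all genes). That gene was Trim25, the ubiquitin ligase known to activate RIG-I (-0.59 ± 0.09, adjusted p = 0.0024), so it and Ddx58 differed in opposite directions. Sting1, the adaptor of DNA sensing, was higher in expanded than in TPA arrays (0.82 ± 0.19, adjusted p = 0.0384), and above the limit on 1 of 2 TPA arrays. A list of 10 other measured genes held IRF and STAT genes and also Irf2bp1, Irf2bp2, Irf2bpl and Prdm1, which are neither. Of the 10, 4 were higher and 1 lower in TPA than in control arrays (5 of 10 called, beside 20.8% of all genes). The higher ones were Stat5a (0.92 ± 0.15, adjusted p = 0.00315), Stat5b, Irf2bp1 and Irf2bp2. The lower one was Prdm1, under the limit on both TPA arrays. Of 10 interferon-induced GTPases, 1 was higher (10.0%, near the 10.2% of all genes called higher), Gbp7 (0.79 ± 0.18), and 7 were under the limit in both groups.

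**Figure D4:**
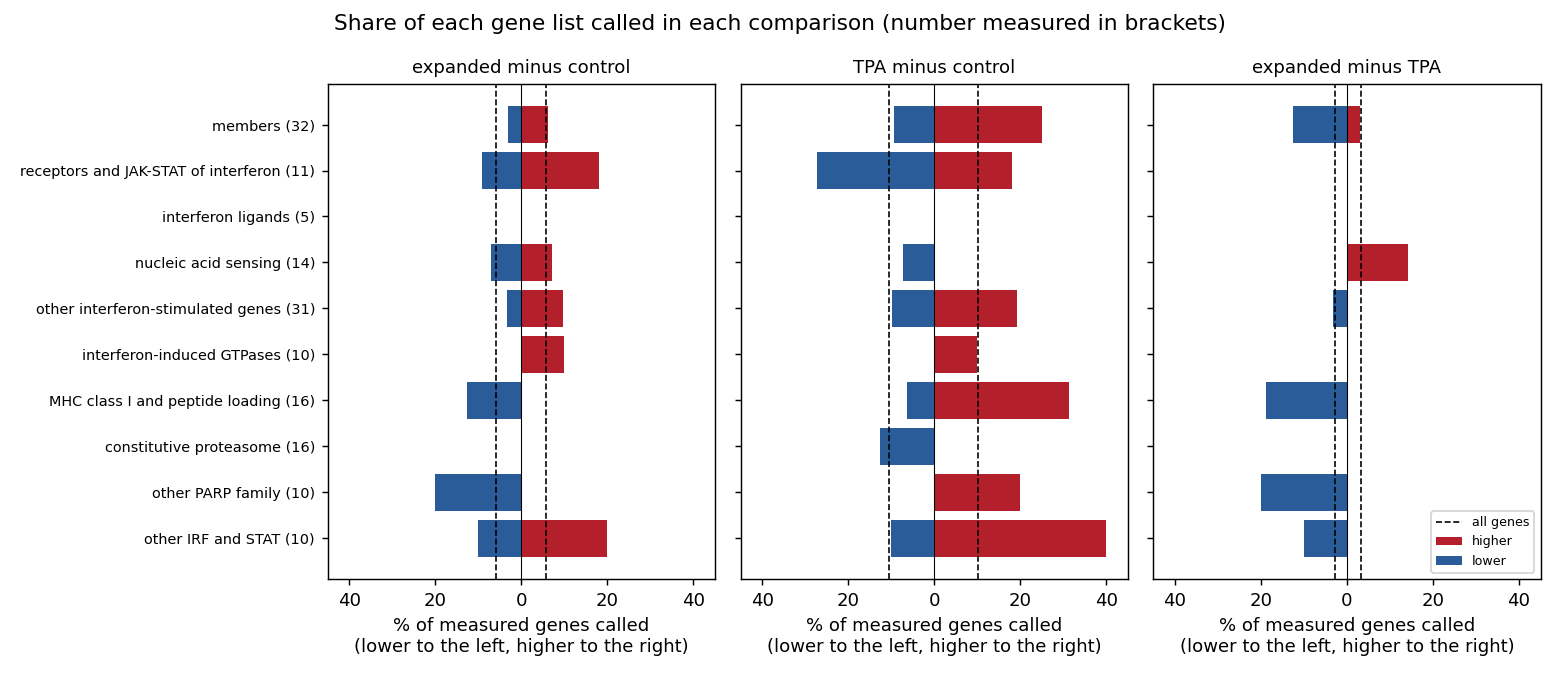
Share of the measured genes of each list (number in brackets) called higher (to the right) or lower (to the left) in 3 comparisons, as percent on the x axis; dashed lines are the shares of all genes. Between TPA and control the members (8 higher, 3 lower of 32) lie past the line for higher calls, and the list labelled constitutive proteasome has 0 higher. The list labelled other IRF and STAT also holds Irf2bp1, Irf2bp2, Irf2bpl and Prdm1.

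Other cell types in the sort were checked by their markers. Of 9 leukocyte and myeloid markers, 1 was above the limit on each expanded and TPA array, and 2 to 5 on control arrays. Their summed linear signal was 512 to 563 in expanded, 536 to 544 in TPA and 568 to 1075 in control arrays. Ptprc, which marks all leukocytes, was under the limit on every array, and so was Cd207 of Langerhans cells. Lyz2 reached 8.25 in control replicate 1 and 7.12 in control replicate 3, was under the limit on every expanded and TPA array, and was not called. Cd14 alone of the 9 was called against control, lower in expanded (-0.88 ± 0.15, adjusted p = 0.00675) and in TPA arrays (-0.91 ± 0.17, adjusted p = 0.00522). It was above the limit on every control array and under it on all others. The 8 markers of Langerhans cells and class II summed to 1173 to 1342 in expanded, 1478 to 1600 in TPA and 1725 to 2518 in control arrays. H2-Ab1 averaged 6.55 in expanded, 6.03 in TPA and 8.49 in control arrays. It was lower in TPA (-2.46 ± 0.42, adjusted p = 0.00371) and in expanded (-1.93 ± 0.38, adjusted p = 0.0124) than in control arrays. Epcam, which keratinocytes can also express, was lower in expanded than in control arrays (-1.04, adjusted p = 0.0045). The other 6 were not called in these comparisons. On every TPA array both sums were under those of every control array.

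The sum of the 6 fibroblast markers was highest in TPA arrays, through Dcn. It was 451 to 493 in expanded, 637 to 738 in TPA and 404 to 526 in control arrays, with Dcn higher in TPA than in control arrays (1.69 ± 0.23, adjusted p = 0.00117). Col1a1 differed by -0.68 ± 0.31 (adjusted p = 0.174) and Col3a1 by -0.10 ± 0.18, and neither was called. Col1a2, Pdgfra and Lum were under the limit on every array. The 5 T cell markers summed to 1323 to 1388 in expanded, 1362 to 1522 in TPA and 660 to 835 in control arrays through Thy1, with Cd3e, Cd3g and Cd3d under the limit on every array. Cd8a was above the limit on every array, at 6.79 in expanded, 6.78 in TPA and 6.82 in control arrays, and was not called. The 6 endothelial markers summed to 702 to 1144 in expanded, 606 to 637 in TPA and 703 to 2120 in control arrays, highest in control replicate 1. Without that replicate 8 members were higher and 1 lower between TPA and control, and the calls of Parp10, Psmb8, Tapbp and Ddx58 held. The 5 melanocyte markers summed to 378 to 432 in expanded, 430 to 474 in TPA and 318 to 703 in control arrays, highest in control replicate 3. Tyrp1 was at 7.77 on that array, against 5.05 and 5.29 in the other control arrays. The part of Dcn, Thy1 and Tyrp1 in the members' differences was not tested.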

How the data were processed

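The deposited values are log2 signals that the authors made with RMA, per the submitters' processing notes, which give no version. RMA shares a distribution between arrays, so a change of total RNA cannot show. Of 45141 probe sets, 28898 carried 1 symbol in a platform annotation of 2016, and the brightest per gene gave 17097 genes. The 8 arrays entered 1 linear model of the 3 groups (limma 3.58.1, R 4.3.3). A check on simulated data set a minimum recovery only for changes of 2-fold, larger than most member differences. Between expanded and TPA it passed with 1 random seed and failed with another, so an uncalled member may still differ. Precision is limited by the number of arrays (3 expanded, 2 TPA, 3 control), each from a separate mouse. Replicate numbers did not pair arrays: same-numbered arrays correlated between -0.18 and 0.03 in their deviations. Genes were named by role, size of difference and smallest p in each list. Alternatives covered scaling, low signal, probe sets, variance model, arrays fitted and fold. The members, lists and rules were chosen with earlier results of these data known. Scan dates were not used here.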

Additional observations from a re-analysis of the deposited data

How the results depend on the processing

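Over 17 other settings, 1526 member values kept their side of the threshold, 63 lost and 13 gained a call. Of the values called in either fit, 0 changed sign. Direction was not counted for values called in neither fit, and some of these changed sign. Irf1 between expanded and control, for example, went from -0.06 to 0.05 without expanded replicate 3. Against a fold of 1.5, 1 member was higher in expanded and 1 in TPA than in control arrays, 0 were higher in expanded than in TPA arrays, and 0 were lower in any comparison. Genes called then numbered 173 (expanded against control), 596 (TPA against control) and 64 (expanded against TPA). Between expanded and control, members higher were 4 with probe sets averaged per gene and 5 with trended robust eBayes. Members lower there were 0 with the low-signal filter, with the 2 groups alone and with the replicate block. The low-signal filter left 1 member lower between TPA and control and 0 higher between expanded and TPA. Between expanded and TPA, the replicate block left 2 members lower and 541 genes, the 2 groups alone 0 members higher and 511 genes, and the mean of probe sets 2 members lower. Leaving out 1 array at a time gave 1 to 3 members higher, 0 lower and 1261 to 2076 genes between expanded and control. It gave 8 to 9 higher, 0 to 3 lower and 2613 to 3344 genes between TPA and control, and 0 to 1 higher, 2 to 5 lower and 560 to 922 genes between expanded and TPA. Members lower between TPA and control numbered 0 without TPA replicate 1. A second Psmb8 probe set, under the limit and chosen after seeing the data, turned the difference between expanded and TPA (0.04, adjusted p = 0.846). The causes were not tested, other than the fewer genes or arrays of a filter or a fit without arrays. Quantile normalization and median centring moved the median of all genes by at most 0.0257 and 0.0318.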
